A study of Mus musculus with 105 samples.

Results

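The 9 genes described here encode factors of nonsense-mediated mRNA decay (NMD): Upf1, Upf2, Upf3a, Upf3b, Smg1, Smg5, Smg6, Smg8 and Smg9. They were chosen by name from 22322 genes in a table of RNA sequencing counts, with earlier results of these data known. No cut-off on a measured value was used, and all 9 were among the 10741 genes with enough counts to test. The cells were CD4+ T cells purified by negative selection from spleen and lymph nodes of female C57BL/6J mice aged 6 weeks. They were either left resting or activated with beads that carry antibodies to CD3 and CD28, and total RNA with ERCC spike-ins, synthetic RNAs of known sequence, was taken from equal numbers of cells. Libraries of both states were made from untreated cells at 0, 1 and 3 h and from cells given 25 µM triptolide at 0, 1 and 3 h. A second series of activated cells received 65 µM DRB (5,6-dichloro-1-β-D-ribofuranosylbenzimidazole) at 0, 1 and 3 h. Both agents stop transcription by RNA polymerase II. At 1 and 3 h, cycloheximide at 100 µg/ml, which stalls elongating ribosomes, or harringtonine at 2 µg/ml, which holds ribosomes at the start codon, was given alone or with each transcription inhibitor. This makes 21 groups of activated and 14 groups of resting cells, each with the replicates 2, 3 and 4 (n = 3), and the labels do not tie a replicate number to a mouse, so p-values measure the spread between libraries.

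NMD destroys mRNAs on which a ribosome ends translation at a stop codon read as premature, so it acts only while the message is being translated. The helicase UPF1 binds the terminating ribosome, UPF2 and the paralogs UPF3A and UPF3B link it to the exon junction complex left downstream of the stop codon, and the kinase SMG1, held by its regulatory partners SMG8 and SMG9, phosphorylates UPF1. Phosphorylated UPF1 then recruits SMG6, which cuts the mRNA, and SMG5, which leads to loss of the cap and tail. In mammalian cell lines several of these factors are known to be targets of the pathway themselves, through long 3′ untranslated regions (UTRs) or upstream open reading frames, so their mRNAs rise when the pathway is blocked. The treatments used here bear on that feedback only in part, since they stop all translation rather than NMD alone.

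The features that NMD is known to read were looked up for each gene in the GENCODE M21 annotation of GRCm38, the assembly the processing notes call mm10. Upf1 lies at chr8:70331525-70353278 (minus strand), Upf2 at chr2:5951469-6056703 (plus), Upf3a at chr8:13785615-13799193 (plus) and Upf3b at chrX:37091678-37110322 (minus). Smg1 lies at chr7:118131308-118243670 (minus), Smg5 at chr3:88336260-88362338 (plus), Smg6 at chr11:74925823-75164448 (plus), Smg8 at chr11:87077732-87086774 (minus) and Smg9 at chr7:24399619-24422778 (plus). Smg6 covers 238626 bases, whereas Smg8 covers 9043 bases in 4 exons. The 3′ UTR of Smg1 was the longest of the 9, with 4233 bases, and that of Smg8 the shortest, with 221. The others had 1498 (Smg6), 1261 (Upf2), 1230 (Smg5), 958 (Upf1), 834 (Upf3b), 719 (Upf3a) and 400 bases (Smg9), against a median of 1068 bases over 10482 tested genes with an annotated coding transcript, and 4 of the 9 lay above that median. An annotated transcript of the NMD class was present for Smg1, Smg5 and Smg6 (3 of 9, against 30.4% of genes tested), but the counts are per gene and do not separate transcripts.

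An upstream ATG in the 5′ UTR was found in 4 of 9 members, against 51.7% of genes, and in Smg5 and Smg9 its reading frame closed before the main start codon, as in 43.9% of genes. These windows are shown because an upstream frame that ends early places a stop codon ahead of the main coding sequence and of the exon junctions within it. Each is given on the coding strand with the upstream ATG in capitals.
Smg5: cgcctcacagcgATGgcggccgagcaggg
Smg9: gcggcgcATGcgccgagctagcag
The Smg5 window lies at chr3:88336291-88336319 and its frame runs for 30 codons before the stop. The Smg9 window lies at chr7:24399619-24399642 and its frame runs for 35 codons. In Upf2 and Smg1 the frame of the upstream ATG ended inside the coding sequence.

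The motif ATTTA, the core of the AU-rich elements known from short-lived mRNAs, was present in the 3′ UTR of 7 of 9 members, against 68.7% of genes, and was absent from the 3′ UTRs of Smg5 and Smg9. Smg1 held 8 matches, Upf2 held 3, Upf3a held 2, and Upf1, Upf3b, Smg6 and Smg8 held 1 each. Smg1 and Smg6 rose relative to the typical mRNA after transcription was blocked. The windows of the member that fell fastest after transcription was blocked, Smg8, and of Upf3a, which also fell, are shown with the motif in capitals.
Smg8: cattatattgatATTTAttgtaaaatcaa
Upf3a: ttggcagaagtcATTTActggagatgaat
Upf3a: tacagtgtacttATTTAcataaaataaat
They lie at chr11:87077770-87077798 on the minus strand (Smg8) and at chr8:13798930-13798958 and chr8:13799133-13799161 on the plus strand (Upf3a). A match is a stretch of letters and not a measured site, and a link between the motif and decay was not tested. Counts assigned to the 3′ UTR were 2.12% of the exon counts of Smg8 and 2.14% of those of Upf3a, against 11.2 to 33.9% for the other members. The 3′ UTR makes up 221 of 3218 bases in the main coding transcript of Smg8 and 719 of 2057 in that of Upf3a. The share of Upf3a was thus low for this length, and whether its motifs are in the mRNA counted was not tested.

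The promoters of Upf1, Smg5 and Smg9 are given because Upf1 and Smg5 had the most alike levels across the groups of any pair of members and Smg9 was called higher in all 6 comparisons with a translation inhibitor added at 3 h. They are the RefSeq windows on GRCm38.p6 from 250 bases before to 50 bases after the start, on the coding strand, at chr8:70353230-70353529 (Upf1, minus), chr3:88336010-88336309 (Smg5, plus) and chr7:24399378-24399677 (Smg9, plus). Both strands of all 9 promoters were searched for the E-box CACGTG, the palindromic NRF1 consensus, the cyclic AMP response element TGACGTCA and CCAAT, none of which holds another, and a match is in capitals.
Upf1: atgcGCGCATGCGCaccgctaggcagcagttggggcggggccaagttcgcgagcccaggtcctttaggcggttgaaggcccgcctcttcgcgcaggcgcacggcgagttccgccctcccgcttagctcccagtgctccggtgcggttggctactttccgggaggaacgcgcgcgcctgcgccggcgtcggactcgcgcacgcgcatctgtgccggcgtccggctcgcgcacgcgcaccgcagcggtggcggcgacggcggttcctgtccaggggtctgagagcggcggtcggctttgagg
Smg5: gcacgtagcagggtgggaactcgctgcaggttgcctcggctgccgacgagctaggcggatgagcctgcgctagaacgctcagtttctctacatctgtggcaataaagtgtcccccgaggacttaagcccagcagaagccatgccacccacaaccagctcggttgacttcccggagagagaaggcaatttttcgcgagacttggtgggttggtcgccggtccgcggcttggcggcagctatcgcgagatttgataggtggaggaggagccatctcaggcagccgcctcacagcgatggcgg
Smg9: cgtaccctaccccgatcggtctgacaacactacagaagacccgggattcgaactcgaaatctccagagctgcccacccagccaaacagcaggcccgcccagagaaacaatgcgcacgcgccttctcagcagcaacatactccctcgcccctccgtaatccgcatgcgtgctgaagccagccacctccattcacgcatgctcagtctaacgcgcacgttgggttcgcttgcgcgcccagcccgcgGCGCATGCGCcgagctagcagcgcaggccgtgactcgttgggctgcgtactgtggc
The NRF1 motif was found in the promoters of Upf1 and Smg9 and in no other member, and in 0.97% of 32851 promoters. In Smg9 the bases of this match also hold the upstream ATG shown above. That ATG begins at base 8 of the GENCODE 5′ UTR but ahead of the RefSeq start. The upstream frame of Smg9 thus rests on the GENCODE start. No member held the E-box (7.15% of promoters) or the response element (1.79%), and CCAAT (37.41%) was found in Upf3a, Upf3b, Smg1 and Smg8.

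Libraries held 6300 to 6479221 exon counts (median 2135827) and 660 to 388386 ERCC counts. Of all alignments tallied with the exon counts, 75.8 to 97.3% were not assigned to a gene and 50.5 to 91.5% were not unique. In activated cells the share not unique was highest in replicate 3 in every group except 3 h of triptolide alone. Resting 1 h triptolide replicate 3 held the 6300 exon counts and the 660 ERCC counts, so that 7 of the 9 members had no read in it, and activated 0 h untreated replicate 3 held 141028 exon counts. Leaving out these 2 libraries kept all 85 calls on the relative scale described below. Summed T cell marker levels were 1717 to 2490 counts-per-million (CPM) in untreated libraries, from 7 of 8 listed genes. B cell markers (5 of 6 listed genes in the table, none at 0 in every library) summed to 93.1 to 740 CPM in resting and 6.12 to 144 CPM in activated cells at 0 h. Markers of CD8 T cells, myeloid cells, NK cells and red cells each summed to at most 15.5 CPM in these libraries, and the NK cell gene Ncr1 was at 0. The activation genes Il2ra, Cd69 and Myc summed to 2006 to 3706 CPM in activated and 184.5 to 290.8 CPM in resting cells at 0 h. Smg6 shares exon bases on the opposite strand with Srr and a predicted gene and Upf1 with Cers1 and Gdf1, and since the strand of counting is not given in the sources used here, such reads cannot be told apart.

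Levels of the 9 mRNAs in untreated cells at 0 h spanned more than 1 order of magnitude when scaled to exon length (CPM per kb of exon, mean ± SD, n = 3). The length of a gene was the union of its annotated exons over all transcripts. It was 23984 bases for Smg1 against 15557 in its main coding transcript, 5865 against 2057 for Upf3a and 4618 in both for Upf1. The order of the members therefore depends on this choice of length, and other lengths were not tried. The kinase message Smg1 was the most abundant in resting cells, at 57.1 ± 2.14, followed by the helicase Upf1 at 36.5 ± 10.3, Smg5 at 23.1 ± 2.86, Smg8 at 16.1 ± 1.92, the endonuclease Smg6 at 12.6 ± 0.495, Upf2 at 12.3 ± 0.868 and Smg9 at 10.1 ± 1.73. The paralogs Upf3b, at 1.98 ± 0.531, and Upf3a, at 1.37 ± 0.504, were the lowest. Neighbours from Smg6 to Smg9, and Upf3b and Upf3a, differed by less than their summed SDs. In activated cells Upf1 came first at 63.3 ± 3.48, then Smg1 at 51.9 ± 13.96 and Smg5 at 34.8 ± 6.54, followed by Smg8 at 18.4 ± 7.14, Smg6 at 13.5 ± 2.34, Upf2 at 12.3 ± 4.95 and Smg9 at 9.68 ± 4.36. Upf3a, at 3.17 ± 0.890, stood above Upf3b, at 1.495 ± 1.51, within their summed SDs, and Upf1, Smg1 and the neighbours from Smg8 to Smg9 were each within the summed SDs of the next. Over all 35 groups the highest mean was 2.25 to 3.87 times the lowest for 8 members, while Smg8 spanned 32.2 times, from 2.42 CPM in resting cells after 1 h of triptolide, where the library of 6300 counts gave a 0, to 77.8 CPM in activated cells after 1 h of harringtonine. Without the 2 shallowest libraries it spanned 26.6 times, from a lowest mean of 2.92 CPM in resting cells after 3 h of triptolide and harringtonine.

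**Figure D1:**
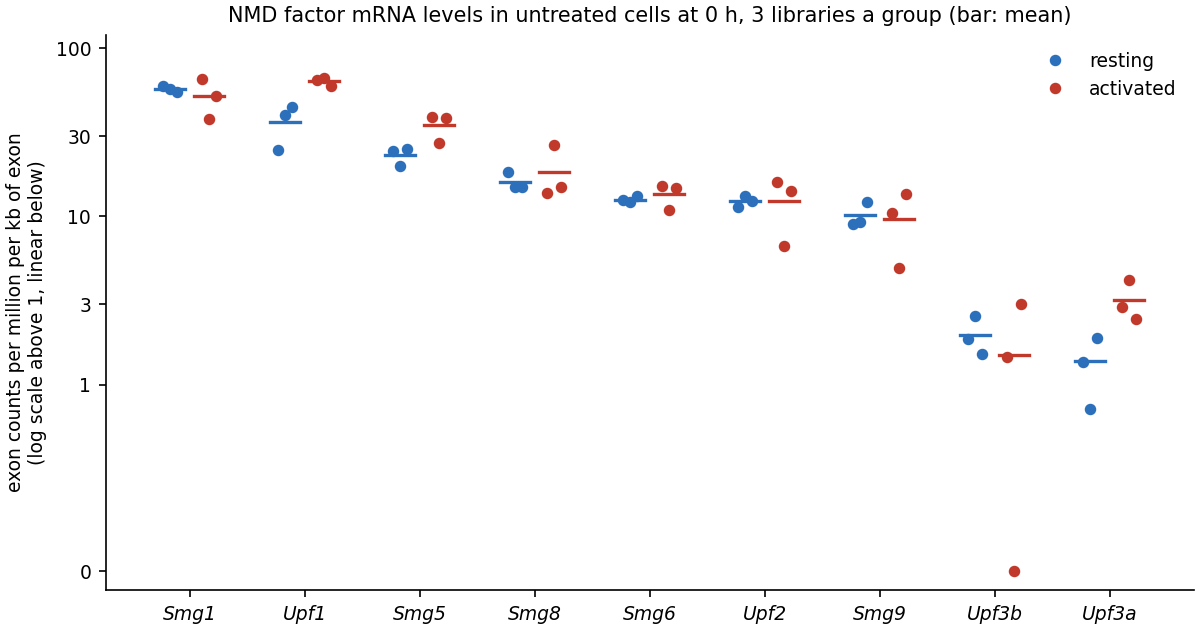
Exon counts-per-million per kb of exon (vertical axis, log scale above 1 and linear below) for the 9 NMD factor mRNAs in untreated resting and activated cells at 0 h. Points are the 3 libraries of a group and bars their mean; Smg1 and Upf1 lie highest, with means of 57.1 and 36.5 in resting cells, and Upf3a and Upf3b lowest.

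Activation raised the mRNAs of 3 of 9 members at 0 h relative to the typical mRNA and lowered none, where 13.9% of all genes rose and 12.9% fell. Relative changes are log2 values ± SE against the typical mRNA of the libraries compared, from edgeR's quasi-likelihood test with n = 3 libraries per group, and a gene was called where its p, adjusted over all genes by Benjamini and Hochberg's method, was under 0.05. In replicates 2, 3 and 4 Upf1 held 297, 306 and 275 CPM when activated and 115, 184 and 206 CPM when resting, a change of 0.78 ± 0.20 (adjusted p = 0.0013). The 2 sets of libraries did not overlap. Upf3a, the paralog known for the weaker activity in NMD, stood at 16.97, 24.5 and 14.4 against 8.02, 5.11 and 11.02 CPM, a change of 1.01 ± 0.29 (adjusted p = 0.0064). Smg5 stood at 270.0, 189.6 and 266 against 169, 138 and 174 CPM, a change of 0.63 ± 0.20 (adjusted p = 0.013). In both the activated libraries lay above all resting ones. These calls were lost without replicate 2 (adjusted p = 0.070 for Upf1, 0.097 for Upf3a and 0.069 for Smg5), for Upf3a also without replicate 3 (0.11) and for Smg5 without replicate 4 (0.12). The other 6 members changed by -0.13 to 0.17 and were not called. Fewer cells of a type and less RNA per cell cannot be told apart in these bulk libraries, and the part of the B cell markers, which were lower in activated cells, was not tested.

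At 3 h the difference between activated and resting untreated cells was called for 4 members, all higher, where 26.3% of genes were higher and 27.5% lower. Smg5 stood at 296, 327 and 342 CPM in activated and at 167, 142 and 100.0 CPM in resting libraries, a change of 1.25 ± 0.20 (adjusted p = 1.2e-07), and Upf1 changed by 0.95 ± 0.19 (adjusted p = 2.0e-05). Both calls held without each replicate in turn. The partners of the kinase were also higher, Smg8 by 0.69 ± 0.27 (adjusted p = 0.027) and Smg9 by 0.59 ± 0.26 (adjusted p = 0.046). These calls were lost for Smg8 without replicate 3 (adjusted p = 0.091) or 4 (0.13) and for Smg9 without replicate 4 (0.60), and that of Smg9 also with library sizes alone (0.086), no filter on low counts (0.060), only the compared libraries in the fit (0.069) and coding-sequence counts (0.16). Smg5 was the one member whose intron counts, which stand nearest to unspliced RNA, also passed the test, by 1.11 ± 0.36 (adjusted p = 0.031) at 0 h and 1.08 ± 0.35 (adjusted p = 0.017) at 3 h, where introns of 7.49% and 11.4% of genes were higher. Scaled to ERCC counts in place of the typical mRNA, Upf3a was higher at 0 h, by 1.19 ± 0.42 (adjusted p = 0.043), against 10.7% of genes, a call lost without replicate 2 (0.19), 3 (0.19) or 4 (0.12). At 3 h 6 members were higher on that scale, Upf1, Upf3a, Smg5, Smg6, Smg8 and Smg9, against 40.6% of genes. Without replicate 3 the call of Upf3a (0.079) was lost. Without replicate 4 the calls of Upf3a (0.22), Smg6 (0.22), Smg8 (0.053) and Smg9 (0.26) were lost. Over 3 h without inhibitor no member passed edgeR's test in either state by either scale, and 0 of 9 had an unadjusted p under 0.05 on the relative scale (0 called by DESeq2), while 6.05% of genes rose and 7.56% fell relative to the typical mRNA in activated cells and 3.03% and 3.36% in resting cells. Per ERCC count 5.49% of genes rose and 2.24% fell in activated cells and 0.298% and 1.44% in resting cells. With the replicate number as a block, which the activated libraries follow, Smg5 rose per ERCC count in activated cells (adjusted p = 0.038), where 18.8% of genes rose.

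After transcription was blocked, Smg8 was the member that fell most, in both cell states and with both inhibitors. With triptolide in activated cells it went from 26.5, 41.0 and 49.1 CPM at 0 h to 4.79, 3.93 and 4.12 at 1 h and 6.89, 12.2 and 5.64 at 3 h. With DRB it went from 28.2, 43.6 and 30.9 CPM to 9.07, 8.78 and 5.12 at 1 h and 7.14, 7.59 and 8.93 at 3 h. In resting cells with triptolide it went from 42.8, 45.8 and 34.1 CPM to 5.05, 0 and 2.21 at 1 h and 8.30, 0 and 2.30 at 3 h. All libraries of 1 and 3 h lay below all libraries of 0 h in the same series. The relative change at 1 h was -3.15 ± 0.39 (adjusted p = 7.0e-10) with triptolide and -2.10 ± 0.34 (adjusted p = 5.7e-06) with DRB in activated cells and -3.79 ± 0.45 (adjusted p = 8.2e-10) in resting cells. These changes stood at percentiles 0.456, 1.05 and 0.158 of the changes of all genes, where 15.1%, 10.5% and 16.2% of genes fell. At 3 h the changes were -2.37 ± 0.38 (adjusted p = 2.6e-07), -2.09 ± 0.37 (adjusted p = 3.3e-06) and -3.84 ± 0.46 (adjusted p = 5.7e-11). All 6 calls held without each replicate and in the other fits tried, and without the 6300-count library and the next shallowest the resting 1 h change was -3.81 (adjusted p = 1.3e-09). Reads were few at the end of the series, with 12, 7 and 7 exon reads of Smg8 in the activated 3 h triptolide libraries and 5, 0 and 3 in the resting ones.

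Scaled to ERCC counts, a value that does not rest on the typical mRNA, the Smg8 message left at 3 h was 6.22% (1 SE range 4.54 to 8.52%) of its 0 h level with triptolide and 8.11% (1 SE range 6.03 to 10.9%) with DRB in activated cells, and 2.17% (1 SE range 1.52 to 3.10%) in resting cells. At 1 h it was already at 6.61%, 13.9% and 4.29%. The median gene changed by log2 values of -1.68, -1.54 and -1.77 over 3 h on this scale, against -4.01 ± 0.45, -3.62 ± 0.43 and -5.53 ± 0.52 for Smg8. The difference in the relative change between activated and resting cells under triptolide was 1.48 ± 0.67 (adjusted p = 0.19), with a 95% interval of 0.15 to 2.80, and between triptolide and DRB in activated cells -0.28 ± 0.55 (adjusted p = 1.0), with an interval of -1.36 to 0.81. Neither difference passed the threshold.

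**Figure D2:**
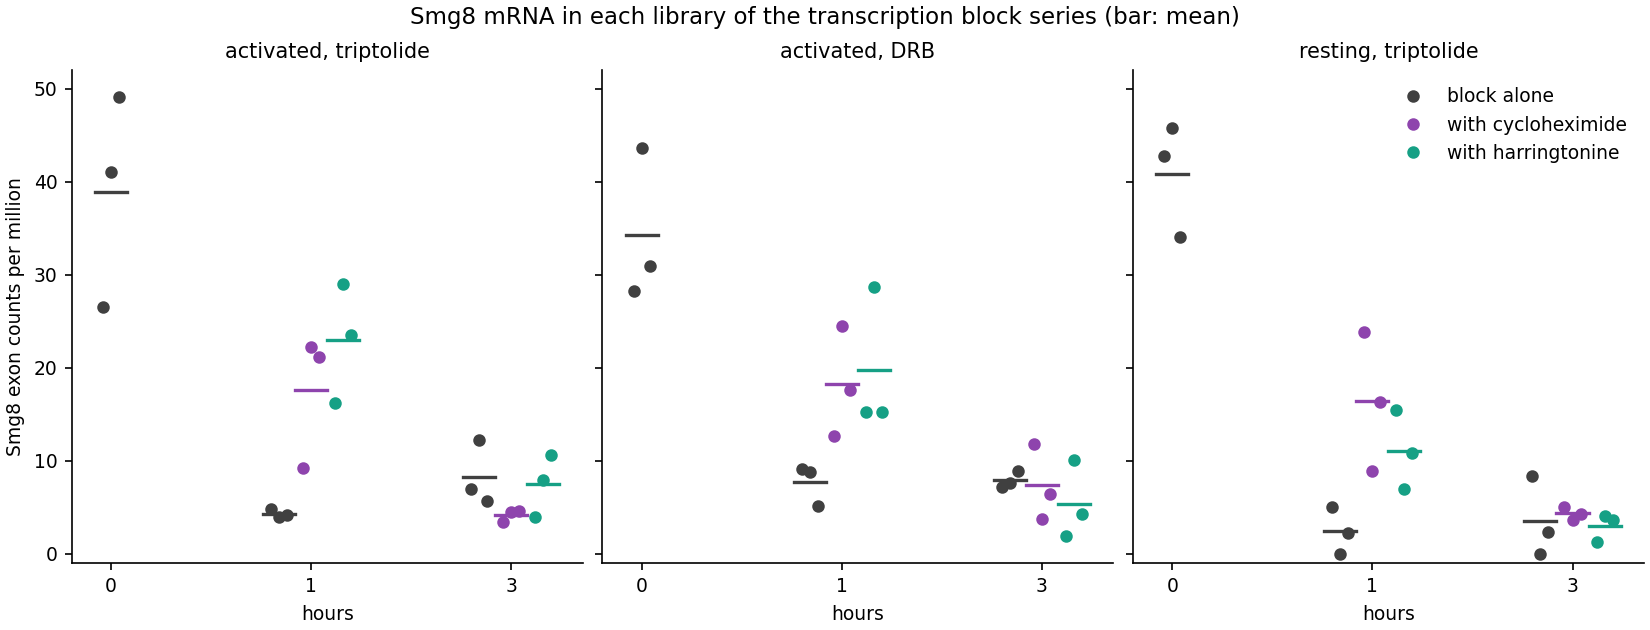
Smg8 exon counts-per-million in each library against hours of treatment, for activated cells with triptolide, activated cells with DRB and resting cells with triptolide. Points are libraries, bars their mean, and colours show the transcription inhibitor alone or with cycloheximide or harringtonine; with triptolide alone in activated cells the 3 libraries stand at 26.5 to 49.1 at 0 h and at 3.93 to 4.79 at 1 h.

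The other partner of the kinase, Smg9, and the UPF2-binding factor Upf3a also fell relative to the typical mRNA in activated cells. At 3 h, 3 members fell and 2 rose with triptolide, where 26.1% of genes fell and 21.5% rose, and the same 5 members were called with DRB, where 21.9% fell and 17.9% rose. Smg9 went from 39.5, 50.2 and 45.2 CPM to 17.2, 38.3 and 29.8 CPM with triptolide, a change of -0.75 ± 0.29 (adjusted p = 0.025) that was lost without replicate 2 (adjusted p = 0.14) or 4 (0.11), or with only the compared libraries in the fit (0.052). With DRB it went from 39.1, 56.1 and 55.4 to 21.4, 22.8 and 30.9 CPM, a change of -0.99 ± 0.28 (adjusted p = 0.0030) that held without each replicate. Every 3 h library lay below every 0 h library in both series. Upf3a went from 14.6, 15.4 and 16.8 to 2.87, 13.9 and 8.05 CPM with triptolide, by -1.17 ± 0.33 (adjusted p = 0.0024), a call lost without replicate 2 (0.13). With DRB it changed by -0.85 ± 0.30 (adjusted p = 0.018), a call lost without replicate 2 (0.064), 3 (0.053) or 4 (0.10), with no filter on low counts (0.073) and with only the compared libraries in the fit (0.086). In resting cells Upf3a changed by -0.45 ± 0.35 (adjusted p = 0.27) and Smg9 by 0.28 ± 0.27 (adjusted p = 0.38), and neither was called.

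The kinase Smg1 and the endonuclease Smg6 stood at the opposite end. Smg6 went from 142, 79.7 and 122 to 247, 259 and 359 CPM with triptolide in activated cells and from 103, 105.2 and 110.5 to 292, 303 and 341 CPM in resting cells. Relative to the typical mRNA it rose by 1.34 ± 0.23 (adjusted p = 1.1e-06) with triptolide, 1.18 ± 0.22 (adjusted p = 1.6e-05) with DRB and 1.56 ± 0.23 (adjusted p = 1.5e-08) in resting cells, but on the ERCC scale it stood at 81.4% (1 SE range 64.0 to 104%), 79.9% (1 SE range 63.1 to 101.3%) and 90.0% (1 SE range 70.9 to 114%) of its start, not called, and scaling on mitochondrially encoded mRNAs turned the relative values to -0.37, -0.35 and 0.34. The fall per ERCC count with triptolide in activated cells was called without replicate 3 (adjusted p = 0.0019). Smg1 rose by 0.89 ± 0.22 (adjusted p = 0.00051), 0.62 ± 0.22 (adjusted p = 0.017) and 1.02 ± 0.22 (adjusted p = 5.2e-05) relative to the typical mRNA but fell per ERCC count, to 60.4%, 54.3% and 60.8% of its start, and under mitochondrial scaling its changes were -0.81, -0.90 and -0.20. Without replicate 4 the relative call was lost with triptolide (adjusted p = 0.051) and DRB (0.31) in activated cells, that with DRB also with library sizes alone (0.43), relative log expression factors (0.060), no filter (0.079) and only the compared libraries (0.13). The falls per ERCC count were lost without replicate 4 at 0.16, 0.072 and 0.13, and without replicate 2 at 0.53 with triptolide in activated and 0.13 in resting cells. Mitochondrial scaling also moved the median gene downward in these series, so its values for Smg6 and Smg1 hold that shift of all genes.

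Upf1, Upf2, Upf3b and Smg5 stood between these ends. In resting cells Upf1 rose by 0.49 ± 0.19 (adjusted p = 0.025) relative to the typical mRNA but fell to 45.1% per ERCC count, and its relative value was -0.0013 with library sizes alone and -0.76 under mitochondrial scaling. The call was lost without replicate 2 (adjusted p = 0.54) or 4 (0.078), with DESeq2 (0.30), with relative log expression factors (0.27) and with no filter (0.20). With it, 3 members rose and 1 fell there, where 26.6% of genes rose and 30.3% fell. On the ERCC scale 8 members fell over 3 h with triptolide in activated cells, where 77.7% of genes fell, 7 with DRB (78.2%) and 7 with triptolide in resting cells (75.5%). Without replicate 2 they were 5 with triptolide in activated cells, where Upf2 (0.30), Upf3b (0.098) and Smg1 were lost, and without replicate 4 they were 3 in resting cells, where Upf1 (0.12), Upf2 (0.20), Smg1 and Smg9 (0.12) were lost. Upf1 stood at 34.8%, 38.6% and 45.1% of its start in the 3 series, Smg5 at 26.3%, 34.2% and 40.5%, and Smg9 at 19.96%, 17.02% and 38.6%. Upf2, at 36.5%, 49.9% and 49.7%, and Upf3b, at 28.4%, 48.0% and 64.3%, had log2 SEs of 0.42 to 0.53. With triptolide in activated cells, leaving out 1 replicate gave log2 changes of -2.21 to -0.92 for Upf1 and -2.22 to -0.67 for Upf2. The same range was -2.37 to -1.59 for Smg5 and -2.88 to -1.85 for Smg9. Replicate 3 of this 3 h group held 14.7 exon counts per ERCC count, against 8.44 and 6.90 in replicates 2 and 4. With the replicate number as a block, which the libraries of the DRB and resting series follow, relative rises were also called for Upf2 with DRB (adjusted p = 0.032) and, in resting cells, for Upf2 (0.00081), Upf3b (0.00064) and Smg5 (0.015), and on the ERCC scale Upf3b fell with DRB (0.0025) and in resting cells (0.045). The block also raised the calls over all genes, to 24.5% rising with DRB and 31.5% in resting cells, and to 83.4% and 79.9% falling on the ERCC scale. No member differed past the threshold in its relative change between triptolide and DRB, where 0.335% of genes had a higher and 1.04% a lower change with triptolide, or between activated and resting cells (4.07% and 2.4%), and in the latter comparison Smg5, Smg8 and Smg9 had an unadjusted p under 0.05.

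**Figure D3:**
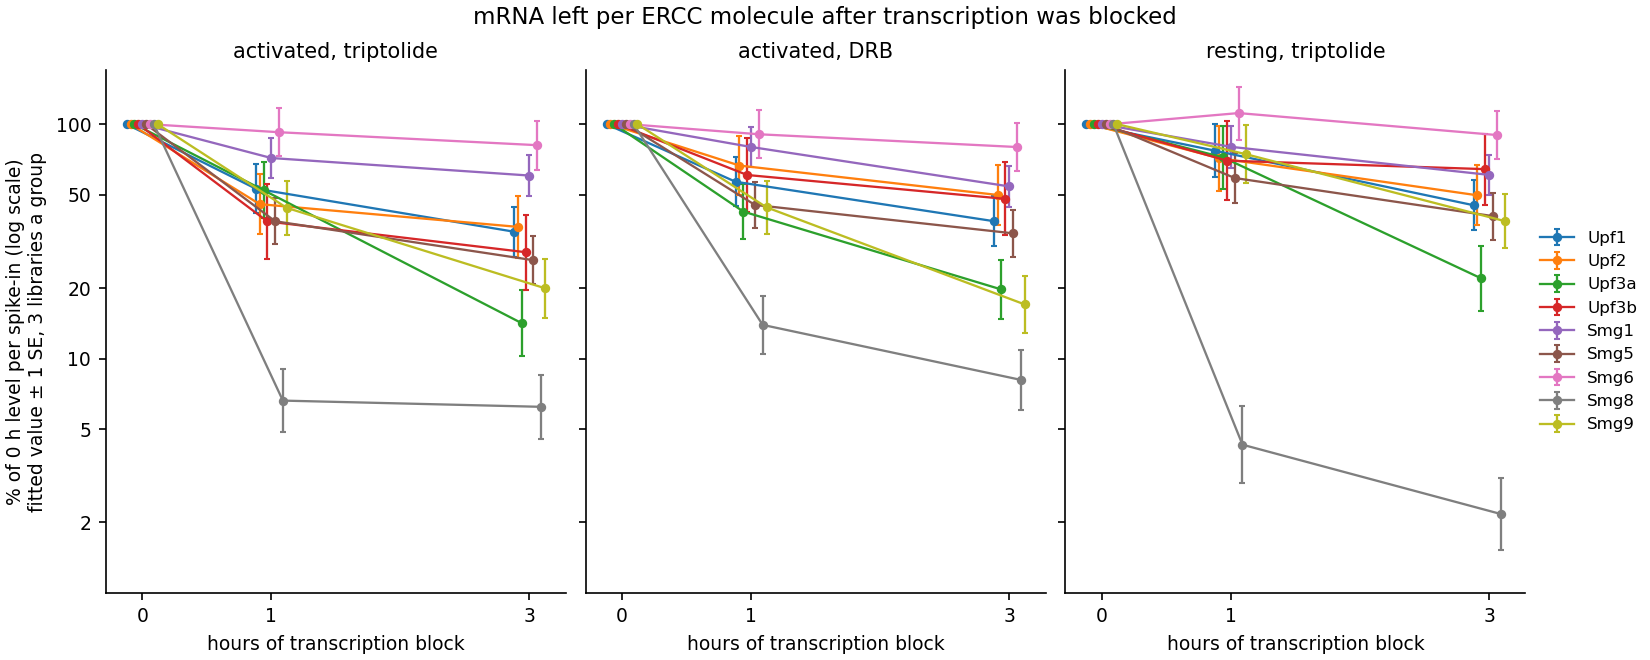
Percent of the 0 h level per ERCC count (log scale) at 0, 1 and 3 h of transcription block for the 9 members, in activated cells with triptolide, activated cells with DRB and resting cells with triptolide. Points are fitted values, bars ± 1 SE, n = 3 libraries a group; Smg8 lies lowest at 3 h, at 6.22, 8.11 and 2.17%, and Smg6 highest, at 81.4, 79.9 and 90.0%.

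Intron counts of 6 members fell over 3 h of triptolide in activated cells, where introns of 38.8% of genes fell. Among them, Smg5 changed by -2.75 ± 0.41 (adjusted p = 7.2e-08), Smg9 by -3.04 ± 0.48 (adjusted p = 2.4e-07), Upf2 by -2.15 ± 0.45 (adjusted p = 4.9e-05), Upf1 by -1.76 ± 0.48 (adjusted p = 0.0017) and Smg1 by -1.61 ± 0.40 (adjusted p = 0.00050). Upf3a went from 12, 7 and 7 intron reads to 0, 0 and 0. Intron counts of Smg6, whose locus is the longest of the 9, changed by -0.91 ± 0.59 (adjusted p = 0.20) and those of Upf3b by -0.41 ± 0.50 (adjusted p = 0.49), and neither passed. Smg8 held 328 intron reads over all libraries and its introns were not tested.

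Translation was stopped together with transcription in order to see which mRNAs then persist. If decay of a message needs translation, as NMD does, its level after 3 h should stand higher with the translation inhibitor than with the transcription inhibitor alone. These comparisons share their 3 h reference libraries with the decay comparisons above, and those with cycloheximide share them with those with harringtonine. Smg9 rose in all 6, Upf3a in 5 and Smg5 in 3, and Smg1 was lower in 1 on the relative scale. With cycloheximide, 3 members were higher than with triptolide alone in activated cells, where 15.8% of genes were higher and 11.6% lower, 1 was higher than with DRB alone (10.5% and 7.17%), and in resting cells 2 were higher and 1 lower (18.8% and 16.4%). With harringtonine the higher members were 3 (14.8% of genes higher), 2 (11.3%) and 3 (14.6%), and none was lower (9.87%, 7.37% and 9.48% of genes).

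For Smg9 the libraries with triptolide alone in activated cells stood at 17.2, 38.3 and 29.8 CPM, those with cycloheximide added at 52.9, 74.2 and 67.7 and those with harringtonine added at 56.2, 68.0 and 78.0. Neither treated set overlapped the reference. The changes were 1.28 ± 0.28 (adjusted p = 0.00028) and 1.33 ± 0.29 (adjusted p = 0.00018), 2.42 and 2.52 times the level without translation inhibitor, and both held without each replicate. In the DRB series Smg9 changed by 1.21 ± 0.29 (adjusted p = 0.0015) with cycloheximide and 1.04 ± 0.28 (adjusted p = 0.0046) with harringtonine, and in resting cells by 0.82 ± 0.27 (adjusted p = 0.011) and 0.81 ± 0.27 (adjusted p = 0.020). Without replicate 4 these 4 calls were lost (adjusted p = 0.053, 0.079, 0.11 and 0.20), and the last also without replicate 2 (0.072). With the GENCODE start, Smg9 is one of the members whose upstream frame ends before the start codon. Its ATG begins ahead of the RefSeq start, and Upf3a, described next, has no upstream ATG. A link between this feature and the changes was not tested.

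For Upf3a the activated triptolide libraries stood at 2.87, 13.9 and 8.05 CPM, those with cycloheximide at 10.6, 12.8 and 15.7 and those with harringtonine at 24.2, 24.4 and 30.5. The cycloheximide libraries overlapped the reference and the harringtonine libraries did not. The change with cycloheximide was 0.93 ± 0.33 (adjusted p = 0.027), lost without replicate 2 (adjusted p = 0.32) or 4 (0.20), with no filter (0.088) or with only the compared libraries (0.16), and the change with harringtonine was 1.93 ± 0.32 (adjusted p = 1.5e-06), which held without each. Beside DRB, Upf3a changed by 0.73 ± 0.32 (adjusted p = 0.10) with cycloheximide, not called, and by 1.08 ± 0.30 (adjusted p = 0.0051) with harringtonine, lost without replicate 4 (0.17) and with only the compared libraries (0.0504). In resting cells the libraries with triptolide stood at 6.64, 6.89 and 6.90 CPM and those with cycloheximide added at 17.9, 14.8 and 15.97, with no overlap and a change of 1.24 ± 0.34 (adjusted p = 0.0026) that held without each replicate. With harringtonine the change was 1.02 ± 0.35 (adjusted p = 0.023), lost without replicate 2 (0.40) or 4 (0.069), with no filter (0.086), with only the compared libraries (0.071) and with coding-sequence counts (0.077). Upf3a had few reads, 4, 7 and 9 in the resting triptolide libraries. In activated cells with triptolide Upf3a was lower with cycloheximide than with harringtonine, with a difference of -0.995 ± 0.26 (adjusted p = 0.0094), where 1.49% of genes were lower, but this was lost without replicate 2 (0.072), 3 (0.063) or 4 (0.19) and under mitochondrial scaling (0.40). No other member differed past the threshold between the inhibitors at 3 h (3.39% of genes higher with cycloheximide beside triptolide in activated cells, 2.39% higher and 1.24% lower beside DRB, and 1.99% and 0.177% in resting cells). With the block Upf1 was higher with cycloheximide beside triptolide (0.037) and DRB (0.044) and Smg6 lower beside DRB (0.040) in activated cells, where it called 6.97% and 6.27% of genes higher and 4.77% lower.

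Smg5, the other member with a closed upstream frame, stood at 215, 233 and 259 CPM with triptolide in activated cells, at 322, 365 and 418 with cycloheximide added and at 364, 396 and 449 with harringtonine added. The groups did not overlap, and the changes were 0.64 ± 0.20 (adjusted p = 0.0097) and 0.77 ± 0.20 (adjusted p = 0.0019), both lost without replicate 4 (adjusted p = 0.13 and 0.062). With DRB, Smg5 changed by 0.42 ± 0.20 (adjusted p = 0.13) and 0.34 ± 0.20 (adjusted p = 0.23), and in resting cells by 0.47 ± 0.20 (adjusted p = 0.058) with cycloheximide, not called. The resting change with harringtonine was 0.53 ± 0.20 (adjusted p = 0.043), lost without replicate 2 (0.24), 3 (0.18) or 4 (0.068), with no filter (0.092) and with coding-sequence counts (0.084). With the replicate number as a block, which these series follow, Smg5 was also called higher with cycloheximide beside DRB (0.012) and in resting cells (0.0077) and with harringtonine beside DRB (0.049), where it called 15.1%, 22.6% and 15.4% of genes higher.

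Smg1, whose 3′ UTR is the longest of the 9, was not called higher with a translation inhibitor added at 3 h on either scale without the block. In resting cells with cycloheximide its change relative to the typical mRNA was -0.73 ± 0.22 (adjusted p = 0.0064), but its ERCC-scaled change was 0.16 ± 0.28 (adjusted p = 0.70) and its change under mitochondrial scaling was 0.62 (0.049), and the call was lost without replicate 4 (0.17) and with library sizes alone (0.14). With the block, relative falls of Smg1 were called also beside triptolide (0.0080) and DRB (0.0027) with cycloheximide in activated cells and with harringtonine in resting cells (0.0032), as were those of Smg6 (0.015) and Upf3b (0.0094) with cycloheximide in resting cells, but the ERCC-scaled changes were 0.22 ± 0.28, 0.18 ± 0.28 and 0.10 ± 0.28 for Smg1, 0.58 ± 0.34 for Smg6 and 0.01 ± 0.51 for Upf3b, and mitochondrial scaling turned the values of Smg6 in resting cells and of Smg1 with cycloheximide upward. Of all genes the block called 22.1%, 16.9% and 24% lower with cycloheximide and 19.1% with harringtonine in resting cells. Mitochondrial scaling also moved the median gene upward in these comparisons, so its values hold that shift of all genes. Upf1, for which a long 3′ UTR is the feature reported in human cells, changed by 0.05 ± 0.19, 0.24 ± 0.19 and 0.17 ± 0.19 with cycloheximide and by -0.42 ± 0.19, -0.24 ± 0.19 and -0.22 ± 0.19 with harringtonine, none of them called, and mitochondrial scaling turned the last value to 0.88. Upf2 changed by 0.01 to 0.38 over the 6 comparisons and was not called.

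**Figure D4:**
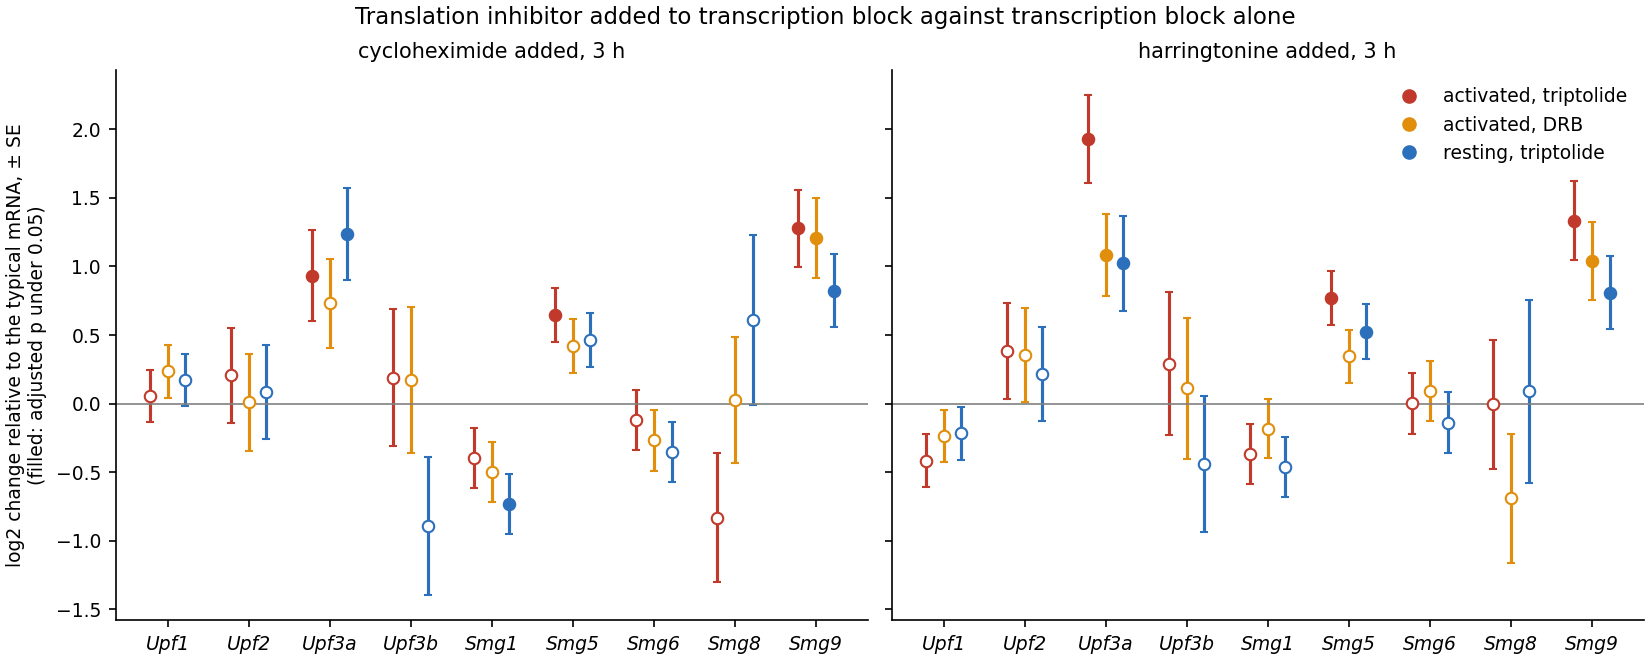
Log2 change relative to the typical mRNA, ± SE, at 3 h with cycloheximide (left) or harringtonine (right) added to the transcription inhibitor, against the transcription inhibitor alone, n = 3 libraries a group. Colours show activated cells with triptolide, activated cells with DRB and resting cells with triptolide, and filled points have an adjusted p under 0.05; Smg9 is filled in all 6 comparisons, from 0.81 to 1.33.

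On the ERCC scale the median gene was itself higher at 3 h with cycloheximide added, by 0.62 beside triptolide and 0.59 beside DRB in activated cells and by 0.86 in resting cells. Members called higher there were Upf3a, Smg5 and Smg9 beside triptolide, these and Upf1 beside DRB, and these, Upf1 and Smg8 in resting cells, where 34.6%, 29.6% and 46% of genes were higher. With harringtonine Upf3a, Smg5 and Smg9 were called in each series (21.5%, 25.3% and 26.8% of genes). Without replicate 4 the harringtonine calls were lost, for Upf3a at adjusted p = 0.056, 0.073 and 0.062, for Smg5 at 0.34, 0.17 and 0.092 and for Smg9 beside triptolide at 0.19 in activated and 0.12 in resting cells, and only that of Smg9 beside DRB held (0.029). Smg5 was also lost beside triptolide without replicate 2, in activated (0.055) and resting cells (0.070), and beside DRB without replicate 3 (0.079), and Upf3a in resting cells without replicate 2 (0.21). With cycloheximide, Upf3a was lost beside triptolide in activated cells without replicate 2 (0.14) or 4 (0.25) and beside DRB without 4 (0.18). Smg5 was lost without replicate 4 in both activated series (0.17 and 0.19). Upf1 was lost beside DRB without replicate 3 (0.15) or 4 (0.41) and in resting cells without 2 (0.056) or 4 (0.096). Smg9 changed by 1.91 ± 0.41 (adjusted p = 0.00010), 1.94 ± 0.40 (adjusted p = 0.00010) and 1.77 ± 0.39 (adjusted p = 8.5e-05) with cycloheximide. Without replicate 4 the first of these was lost (adjusted p = 0.053), and the others held without each replicate. With the block, 5 members were called with cycloheximide beside triptolide in activated cells, where Upf2 (0.020) and Upf3b (0.0045) joined, and 6 with harringtonine beside DRB, where Upf2 (0.0023), Smg1 (0.045) and Smg6 (0.0056) joined. Upf2 was also called with it beside DRB with cycloheximide (0.037) and in resting cells with cycloheximide (0.0024) and harringtonine (0.028), and Smg6 in resting cells with cycloheximide (0.041). Under the block 44.8%, 38.8% and 51.6% of genes were higher with cycloheximide, and 35.9% beside DRB and 33.3% in resting cells with harringtonine.

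The response of Smg8 was called at 1 h. It was then higher with cycloheximide than with the transcription inhibitor alone in all 3 series, at 9.24, 22.2 and 21.2 CPM against 4.79, 3.93 and 4.12 with triptolide in activated cells, a change of 2.01 ± 0.41 (adjusted p = 0.00018). The changes were 1.200 ± 0.36 (adjusted p = 0.027) beside DRB and 2.44 ± 0.48 (adjusted p = 0.00043) in resting cells. With harringtonine they were 2.38 ± 0.39 (adjusted p = 4.0e-06), 1.30 ± 0.36 (adjusted p = 0.012) and 1.90 ± 0.49 (adjusted p = 0.010). All 6 changes were called, where 9.43%, 5.19% and 4.78% of genes were called higher with cycloheximide and 9.24%, 5.51% and 4.47% with harringtonine. In all 6 every library with the translation inhibitor also lay above every library without it. The share of all genes separated in this way was not counted. The call with harringtonine beside triptolide in activated cells held without each replicate. The others were lost without replicate 4, at adjusted p = 0.14, 0.51 and 0.59 with cycloheximide and 0.29 and 0.76 with harringtonine, and those beside DRB also without replicate 3 (0.10 and 0.12) and with only the compared libraries (0.19 and 0.16). In resting cells without the 2 shallowest libraries, 1 of them a reference library here, the changes were 2.44 (0.00066) and 1.89 (0.013). Smg5 at 1 h was higher by 0.60 ± 0.20 (adjusted p = 0.031) and 0.71 ± 0.20 (adjusted p = 0.016) with cycloheximide and by 0.71 ± 0.20 (adjusted p = 0.0078) and 0.63 ± 0.20 (adjusted p = 0.032) with harringtonine in activated cells, calls that were all lost without replicate 4 (0.35, 0.49, 0.27 and 0.38). The first (0.052), the second (0.052) and the last (0.12) were also lost without replicate 2, and the first (0.076) and the last (0.067) without replicate 3. In resting cells Smg5 changed by 0.50 ± 0.22 (adjusted p = 0.20) and 0.45 ± 0.22 (adjusted p = 0.28). Smg9 at 1 h changed by 0.63 ± 0.26, 0.71 ± 0.26 and 0.30 ± 0.28 with cycloheximide, not called, and by 0.75 ± 0.26 (adjusted p = 0.048), 0.80 ± 0.26 (adjusted p = 0.047) and 0.33 ± 0.28 (adjusted p = 0.65) with harringtonine, where the calls were lost without replicate 2 (0.096 and 0.28) or 4 (0.63 and 0.45).

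At 3 h no relative change of Smg8 with a translation inhibitor passed the threshold. Its relative changes were -0.83 ± 0.47, 0.02 ± 0.46 and 0.61 ± 0.62 with cycloheximide and -0.01 ± 0.47, -0.69 ± 0.47 and 0.09 ± 0.67 with harringtonine, with a widest 95% interval of -1.23 to 1.40. Per ERCC count it was higher in resting cells with cycloheximide, by 1.48 ± 0.63 (adjusted p = 0.046), a call lost without replicate 3 (0.11) or 4 (0.36). With both transcription and translation stopped, the message still fell over 3 h. Per ERCC count 5.76%, 13.01% and 6.05% of the 0 h level was left with cycloheximide and 8.68%, 7.79% and 3.18% with harringtonine, called in all 6, where 55.4%, 46% and 44.3% of genes fell with cycloheximide and 68.5%, 52.6% and 60.4% with harringtonine. Smg9 stood at 75.1%, 65.5% and 132% with cycloheximide, against 19.96%, 17.02% and 38.6% with the transcription inhibitor alone. Upf3a stood at 43.5%, 52.4% and 101.0%, against 14.2%, 19.7% and 21.98%. For both messages more was left in each series when translation was also stopped. The median gene was also higher per ERCC count with cycloheximide added, by log2 values of 0.62, 0.59 and 0.86, a shift that these percentages include.

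The translation inhibitors were also given for 3 h without a transcription inhibitor. In resting cells cycloheximide raised 5 members relative to the typical mRNA and lowered 1, where 13.8% of genes rose and 12.5% fell. Smg5 went from 167, 142 and 100.0 CPM in untreated to 344, 251 and 270.1 CPM in treated libraries, a change of 1.09 ± 0.20 (adjusted p = 1.6e-05) that held without each replicate. Smg9 went from 49.7, 41.3 and 24.2 to 94.6, 86.0 and 83.0 CPM, by 1.23 ± 0.25 (adjusted p = 0.00011), lost without replicate 4 (adjusted p = 0.058). The treated libraries lay above the untreated ones for both. Smg8 rose by 0.73 ± 0.27 (adjusted p = 0.037), Upf3a by 0.66 ± 0.26 (adjusted p = 0.048) and Upf1 by 0.58 ± 0.19 (adjusted p = 0.017), calls lost without replicate 4 (0.24, 0.29 and 0.34), for Upf3a also without replicate 3 (0.16) and for Smg8 without 2 (0.065) or 3 (0.052). Coding-sequence counts ended the calls of Upf1 (0.085) and Upf3a (0.17), and the fits with no filter (0.14) and with only the compared libraries (0.074) that of Upf3a. Smg1 had a change of -0.80 ± 0.22 (adjusted p = 0.0037) relative to the typical mRNA, lost without replicate 4 (0.13), but changed by 0.27 ± 0.28 (adjusted p = 0.40) on the ERCC scale and by 0.80 under mitochondrial scaling. Intron counts fell for 5 members, as for 47.9% of genes, with changes of -1.63 ± 0.39 (adjusted p = 0.00080) for Smg1, -1.42 ± 0.59 (adjusted p = 0.041) for Smg6 and -1.21 ± 0.42 (adjusted p = 0.015) for Upf2, and of -0.93 ± 0.35 (adjusted p = 0.026) for Smg5 and -1.16 ± 0.38 (adjusted p = 0.010) for Smg9, whose exon counts rose.

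Harringtonine alone raised Smg5, by 0.82 ± 0.20 (adjusted p = 0.0014), and Smg9, by 0.91 ± 0.25 (adjusted p = 0.0051), in resting cells, where 9.84% of genes rose and 10.6% fell. Both calls were lost without replicate 4 (adjusted p = 0.093 and 0.33). With the replicate number as a block, which these libraries follow, 5 members were called, where 17.5% of genes were higher and 19.4% lower, with Upf2 (0.0032) and Smg6 (0.0046) higher and Smg1 lower (0.0092; its ERCC-scaled change was 0.65 ± 0.28 and its change under mitochondrial scaling 0.99). Per ERCC count 7 members were higher with cycloheximide and 9 with harringtonine in resting cells, where 61.1% and 60.1% of genes were higher. Without replicate 4, Upf2 (0.079) and Smg6 (0.063) were lost with cycloheximide and Upf1 (0.071) and Smg1 (0.18) with harringtonine.

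In activated cells fewer members passed the test. Cycloheximide alone changed none of the 9 in edgeR's test on the relative scale (0 of 9 also at an unadjusted p under 0.05 and by DESeq2), where 15% of genes rose and 15% fell, and harringtonine raised Upf3a, by 0.71 ± 0.25 (adjusted p = 0.020) (15.5% of genes rose and 15.5% fell), lost without replicate 2 (adjusted p = 0.052) or 4 (0.24), with no filter (0.083) and with only the compared libraries (0.052). With the block, Upf2 was called higher with cycloheximide (0.048) and Upf2 (0.0083) and Smg9 (0.013) with harringtonine, and per ERCC count 6 members were called with cycloheximide and 4 with harringtonine, against 0 and 1 without it (25.2% and 20.4% of genes higher). Of all genes the block called 21% and 21.8% higher on the relative scale and 36.3% and 30.6% per ERCC count. Tested directly, the change with cycloheximide was smaller in activated than in resting cells for Smg5, with a difference of -0.83 ± 0.27 (adjusted p = 0.027) relative to the typical mRNA, where 8.65% of genes had a lower change. That call was lost without replicate 2 (0.062), 3 (0.056) or 4 (0.31), with no filter (0.091) and with coding-sequence counts (0.12). Smg5 itself went from 296, 327 and 342 CPM in untreated activated cells to 359.7, 368 and 429 CPM with cycloheximide, so that its untreated level already lay above the untreated resting level.

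**Figure D5:**
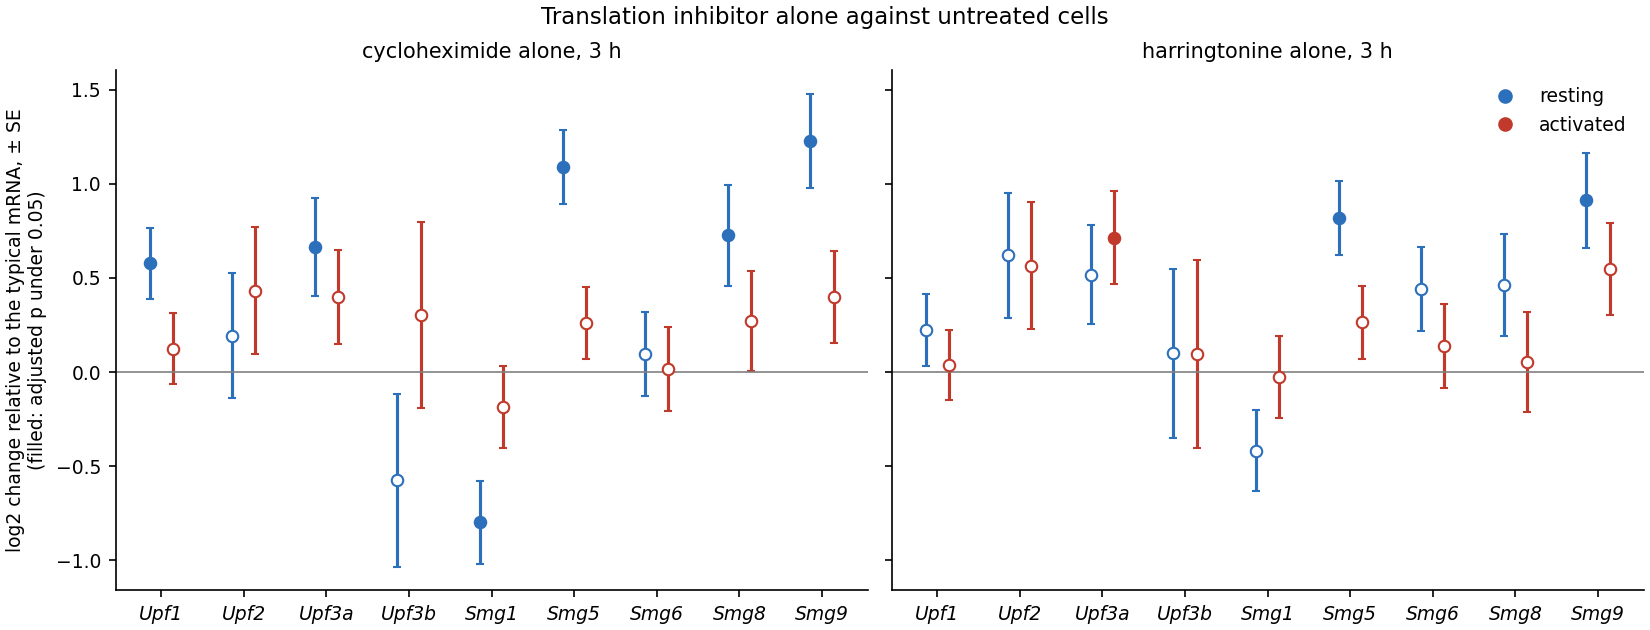
Log2 change relative to the typical mRNA, ± SE, after 3 h of cycloheximide (left) or harringtonine (right) alone against untreated cells at 3 h, for resting and activated cells, n = 3 libraries a group. Filled points have an adjusted p under 0.05; with cycloheximide Smg5 stands at 1.09 in resting and 0.26 in activated cells, and Smg9 at 1.23 and 0.40.

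Other genes of the pathway were followed as lists. The exon junction complex, which marks spliced mRNAs for UPF3 proteins, had 12 members tested, of which 3, 2 and 4 were higher and none lower with cycloheximide added to triptolide in activated cells, to DRB and to triptolide in resting cells, where the shares of all genes were those given for the 9 factors. Its median changes were 0.41, 0.51 and 0.34, against -0.08, -0.10 and -0.05 for all genes. Eif4a3, the helicase at the core of the complex, was higher by 2.14 ± 0.28 (adjusted p = 4.0e-09), 1.75 ± 0.28 (adjusted p = 1.9e-06) and 2.32 ± 0.29 (adjusted p = 7.0e-10). Rnps1, a splicing factor of its outer shell, was higher by 1.75 ± 0.25 (adjusted p = 6.5e-08), 1.30 ± 0.25 (adjusted p = 5.2e-05) and 1.53 ± 0.26 (adjusted p = 2.5e-06). In the activated comparisons both changes were larger than that of any of the 9 NMD factors. The others, named after their values were seen, were Casc3 beside triptolide in activated cells and Alyref and Magoh in resting cells. Nxf1, the mRNA export receptor and the most abundant gene of the list, changed by 0.41 ± 0.17 (adjusted p = 0.063), 0.40 ± 0.17 (adjusted p = 0.089) and -0.39 ± 0.17 (adjusted p = 0.060) and was not called. With the replicate number as a block, 7 genes of the list were called in either direction beside triptolide in activated cells and 6 beside DRB. Of all genes it called 19.9% higher and 22.1% lower beside triptolide, and 15.1% and 16.9% beside DRB. Without replicate 4, 1 gene was called beside DRB. After transcription block with triptolide alone in activated cells, 6 of the 12 fell and none rose, where 26.1% of genes fell and 21.5% rose, Eif4a3 by -2.63 ± 0.28 (adjusted p = 2.5e-12). With activation at 0 h, 1 gene of the list was higher, Magohb, by 1.41 ± 0.49 (adjusted p = 0.025), at few reads.

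Translation termination and NMD helper genes, with 14 tested, had 6 higher and 1 lower beside triptolide in activated cells, 5 and 1 beside DRB (2 in all without replicate 4), and 6 and 1 in resting cells, with medians of 0.38, 0.47 and 0.41. Pnrc2, which bridges UPF1 to decapping, was higher by 2.13 ± 0.31 (adjusted p = 5.5e-08) beside triptolide and 1.75 ± 0.29 (adjusted p = 3.9e-06) beside DRB in activated cells. Ruvbl1, an ATPase needed for SMG1 activity in human cells, was higher by 1.17 ± 0.17 (adjusted p = 1.2e-07) in activated and 2.16 ± 0.21 (adjusted p = 2.9e-13) in resting cells with triptolide. Beside DRB the helicase Dhx34 was higher by 1.75 ± 0.38 (adjusted p = 0.00038), and in resting cells the release factor Etf1 by 1.08 ± 0.17 (adjusted p = 2.9e-07). Pabpc1, the cytoplasmic poly(A)-binding protein that opposes NMD, was the gene that was lower, with changes of -1.42 ± 0.30 (adjusted p = 0.00017), -1.11 ± 0.30 (adjusted p = 0.0053) and -1.42 ± 0.30 (adjusted p = 0.00014). Activation at 0 h raised 6 of the 14 and lowered 1, against 13.9% and 12.9% of all genes. The 2 with the smallest p were the paired ATPases Ruvbl1, by 0.98 ± 0.17 (adjusted p = 3.7e-06), and Ruvbl2, by 1.25 ± 0.23 (adjusted p = 1.3e-05). Pnrc2 was the gene that fell, and it is named after its values were seen.

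Genes reported elsewhere as NMD targets, with 21 of 28 tested, had 7 higher and none lower beside triptolide in activated cells, 8 and none beside DRB (5 without replicate 2 and 3 without replicate 4), and 4 higher and 2 lower in resting cells, with medians of 0.46, 0.50 and 0.24. Map3k14, a kinase of the noncanonical NF-kappaB pathway, was higher by 1.93 ± 0.22 (adjusted p = 4.3e-11), 0.65 ± 0.21 (adjusted p = 0.019) and 2.00 ± 0.22 (adjusted p = 1.9e-11). The splicing factors Srsf7 and Srsf3, which carry poison exons read by NMD, were also higher, Srsf7 by 1.65 ± 0.21 (adjusted p = 2.1e-09) beside triptolide and 1.15 ± 0.21 (adjusted p = 2.4e-05) beside DRB and Srsf3 by 1.57 ± 0.28 (adjusted p = 1.4e-05) beside DRB and 1.58 ± 0.28 (adjusted p = 4.5e-06) in resting cells. The genes lower in resting cells, named after their values were seen, were Ern1 and Ptbp2, and the others higher there were Tra2b and Srsf7. With the block 12 of the 21 were called in either direction beside triptolide in activated cells, where it called 19.9% of genes higher and 22.1% lower. With activation at 0 h 11 of the 21 rose and none fell, against 13.9% and 12.9% of all genes, and the list's median was 0.68. Without replicate 2 the count was 6 and without replicate 4 it was 7. Those with the smallest p were Atf3, by 3.65 ± 0.38 (adjusted p = 2.6e-12), and Gadd45b, by 2.64 ± 0.29 (adjusted p = 1.1e-11), both also induced by stimulation in many cell types.

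Across the means of the 35 groups, which share libraries' depth and treatment, the members did not follow a single pattern (Pearson r of log2 CPM, given as a description). Upf1 and Smg5 were the closest pair, with r = 0.91, followed by Smg1 and Smg6, with r = 0.88. Upf3a (r = 0.76), Smg9 (0.75) and Upf2 (0.73) each lay closest to Smg5, and Upf3b closest to Upf2 (0.71). Smg8 stood apart, with its highest r, 0.30, to Smg9 and its lowest, -0.88, to Smg6. Among 7916 other genes with a mean of at least 10 CPM, those most like the mean profile of the 9 members were Pan2, with r = 0.95, Pmm2 (0.94), Tubgcp4 (0.93), Fkbp15 (0.93) and Rnf40 (0.93).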

How the data were processed

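Whole-number exon and intron counts per gene were deposited by the authors, one column per library, from total RNA of CD4+ T cells, and no value had been normalized. Per the submitters' processing notes, TopHat2 2.0.13, Bowtie 1.1.1.0 and HTSeq were used with mm10, and strand and filters are not given in the sources used here. Exon counts of 22322 genes and 92 ERCC RNAs were used, with intron counts, 3′ UTR counts for their share of exon counts and, for 1 alternative, coding-sequence counts. A further 210 columns of these libraries (5′ UTR counts and a column named nonempty) were not used. All 105 pairs of libraries of one group differed by more than sampling noise (lowest chi-square per degree of freedom 1.145), so none was counted as a copy.

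Genes kept by filterByExpr (10741) were fitted in edgeR 4.0.16 (R 4.3.3) with TMM factors and a robust quasi-likelihood test, all 105 libraries as 35 group means, with Benjamini-Hochberg adjustment over all genes and calls under 0.05. In a second fit library size was the summed ERCC count. Intron counts were fitted with the exon library sizes and factors. CPM uses exon totals with TMM factors. Percent left is 2 to the power of the ERCC-scaled log2 change, with 1 SE either way, and 95% intervals are 1.96 SE. On simulated counts for 1 comparison (cycloheximide added to triptolide in activated cells, 3 h, 10741 genes), 51 of 100 planted 2-fold and 89 of 100 planted 4-fold changes were recovered with 17 false calls.

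Same-numbered libraries deviated together (r over 0.1 in every pair) in 34 of 49 comparisons, so a fit with the number as a block was also run. Other alternatives were DESeq2 1.42.0, relative log expression factors, library size alone, mitochondrial scaling, no filter, the compared libraries only, coding-sequence counts, and leaving out each replicate number, the 2 shallowest libraries or libraries with under 1000 ERCC counts. All members are named. From each list the most abundant gene and the 2 of smallest p were named, and genes alike in profile are the 5 with the highest r. The members and lists were chosen with earlier results of these data known.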

Additional observations from a re-analysis of the deposited data

Results flagged for a closer look

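The change with cycloheximide alone over 3 h differed between activated and resting cells for Smg5, which recruits decay enzymes, and for Smg9, the partner of the kinase, by a test of the difference itself in edgeR. For Smg5 the change in activated minus that in resting cells was -0.83 ± 0.27 (adjusted p = 0.027) relative to the typical mRNA and -1.41 ± 0.46 (adjusted p = 0.026) per ERCC count, and for Smg9 it was -1.40 ± 0.51 (adjusted p = 0.0499) per ERCC count and -0.83 ± 0.35 (adjusted p = 0.092) relative to the typical mRNA, the last not called. The change was lower in activated cells for 8.65% of genes on the relative scale and 14.2% per ERCC count, and for 1 and 2 of the 9 members. On the relative scale the change of Smg5 was 0.26 ± 0.19 in activated and 1.09 ± 0.20 in resting cells, and that of Smg9 0.40 ± 0.24 and 1.23 ± 0.25. The ERCC-scaled difference was lost without replicate 4 for Smg5 (adjusted p = 0.42) and without replicate 2 (0.052), 3 (0.058) or 4 (0.50) for Smg9. Untreated activated cells at 3 h held more Smg5 than untreated resting cells, by 1.25 ± 0.20 relative to the typical mRNA, and the part of these start levels in the differences was not tested.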

How the results depend on the processing

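Of 85 called relative values of the 9 factors described here, 33 kept their call without each replicate number in turn (59 without replicate 2, 69 without 3 and 38 without 4) and 27 in every alternative tried, among them the falls of Smg8 after transcription block. Of 106 called per ERCC count, 43 kept their call without each replicate (79, 98 and 45). DESeq2 kept 79 of the 85, relative log expression factors 79, library size alone 76, mitochondrial scaling 66, no filter 67, the compared libraries alone 65, coding-sequence counts 73, the replicate block 82 and leaving out the 2 shallowest libraries 85. Few reads limit Upf3a, Upf3b and late Smg8, and with 3 libraries per group a loss after leaving out 1 leaves 2 per group.

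Mitochondrial scaling moved the median gene by -1.73, -1.54 and -1.25 over 3 h of block (activated triptolide, DRB and resting triptolide), by 1.25, 1.03 and 1.32 with cycloheximide added, by 0.89, 0.59 and 0.99 with harringtonine added, by 0.65 and 1.56 (activated, resting) with cycloheximide alone, by 0.75 and 1.35 with harringtonine alone and by 0.76 with activation. The genes called higher and lower went from 2310 and 2807 to 193 and 8594 for activated triptolide, from 1927 and 2348 to 158 and 8386 for DRB, from 2853 and 3250 to 356 and 6409 for resting triptolide, from 1697 and 1242 to 7172 and 6 for cycloheximide added to activated triptolide, and from 1491 and 1382 to 4232 and 72 for activation at 0 h. Library size alone gave 1190 and 4030, 874 and 3938, and 1525 and 4693 over the 3 h blocks, with medians of -0.41, -0.43 and -0.55, and DESeq2 1517 and 3366, 1327 and 2783, and 2050 and 3780. Tested against 0, and so with the shift of all genes in them, members called under mitochondrial scaling were 8 for activated triptolide, 8, 8 and 8 with cycloheximide added, 6, 4 and 6 with harringtonine added, 5 and 7 in activated cells with cycloheximide and harringtonine alone and 9 in resting cells with harringtonine alone. Signs turned over 3 h of block for activated triptolide in Upf1 (-1.72), Upf2 (-1.54), Upf3b (-1.65), Smg1 (-0.81) and Smg6 (-0.37), for DRB in Upf1 (-1.39), Upf2 (-1.03), Smg1 (-0.90), Smg5 (-1.53) and Smg6 (-0.35), and for resting triptolide in Upf1 (-0.76), Smg1 (-0.20), Smg5 (-0.79) and Smg9 (-0.95). With cycloheximide added, Smg1 turned to 0.93, 0.64 and 0.62 and Smg6 to 1.22, 0.86 and 1.05, and with harringtonine added in resting cells Upf1 to 0.88 and Smg6 to 0.95. With cycloheximide alone in resting cells Upf3b turned to 1.00 and Smg1 to 0.80, and with harringtonine alone Smg1 turned to 0.76 in activated and 0.99 in resting cells. Library size alone turned Upf1 in resting decay to -0.0013 and gave 3 members for cycloheximide added to DRB.

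No filter gave 3 members for DRB decay, 1 for harringtonine added in resting cells and 0 for harringtonine alone in activated cells. The compared libraries alone gave 3 for DRB decay, 1 for harringtonine added to DRB and 0 for harringtonine alone in activated cells. Coding-sequence counts gave 2 for cycloheximide added to DRB, 1 for harringtonine added in resting cells and 2 for harringtonine alone in activated cells. At 10 CPM or more, 0 junction complex genes were called with activation. Without libraries under 1000 ERCC counts, 2 members were called per ERCC count with activation at 0 h. The cause of these moves was not tested. Shares of all genes called in these fits, or in those without 1 replicate number below, are not given here. These counts therefore do not set the members apart from other genes.

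With the replicate number as a block, relative calls were 7 for resting decay, 3 for cycloheximide added to DRB and 6 in resting cells, 5 for harringtonine added to activated triptolide, 1 and 3 with cycloheximide and harringtonine alone in activated cells, 5 with harringtonine alone in resting cells and 1 over 3 h untreated in resting cells (Upf3b, adjusted p = 0.039). Junction complex genes called in either direction were 4 with activation, 7 with cycloheximide added to activated triptolide and 6 to DRB. Helpers called were 11 with activation, and reported targets 12 with cycloheximide added to activated triptolide. With cycloheximide the block called 19.9% of all genes higher and 22.1% lower beside activated triptolide, and 15.1% and 16.9% beside DRB. Per ERCC count the block gave 1 member over 3 h untreated in activated cells, 5 and 5 with cycloheximide and harringtonine added to activated triptolide, 6 with harringtonine added to DRB, and 6 and 4 with cycloheximide and harringtonine alone in activated cells. The block raised the calls over all genes too, from 3.03% higher and 3.36% lower to 9.3% and 9.21% for 3 h untreated resting cells, from 13.9% and 12.9% to 22.8% and 22.7% for activation at 0 h and from 14.8% and 9.87% to 18.3% and 19.1% for harringtonine added to activated triptolide (from 21.5% to 30.1% higher per ERCC count). The numbers did not pair the libraries of the activation comparisons, of 3 h triptolide and of harringtonine added to it in activated cells, of resting cells untreated for 3 h, given triptolide for 1 h alone or with either inhibitor or given triptolide and harringtonine for 3 h against 0 h, nor across the tests of differences between series or cell states, so a block there shares a number only. It ended the activation calls of Smg5 at 0 h (adjusted p = 0.073) and of Smg8 (0.17) and Smg9 (0.32) at 3 h.

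Without 1 replicate number at a time, relative calls of members ranged from 0 to 2 (from 3) for activation at 0 h, 2 to 6 (4) at 3 h, 3 to 5 (5) for activated triptolide decay and 3 to 4 (5) for DRB. With cycloheximide added they ranged from 1 to 3 (3), 0 to 2 (1) and 1 to 3 (3) in the 3 series, and with harringtonine added from 0 to 2 (2) beside DRB and 0 to 2 (3) in resting cells. With cycloheximide alone they ranged from 0 to 1 (0) in activated and 1 to 5 (6) in resting cells, and with harringtonine alone from 0 to 2 (1) and 0 to 3 (2). Junction complex calls ranged from 0 to 1 (1) with activation and 1 to 3 (2) with cycloheximide added to DRB, helper calls from 2 to 5 (6) there, and target calls from 6 to 10 (11) with activation and 3 to 6 (8) there. Per ERCC count the ranges were 0 to 0 (1) and 2 to 7 (6) for activation at 0 and 3 h, 5 to 9 (8) for activated triptolide decay, 3 to 7 (7) for resting decay, 0 to 8 (3), 1 to 4 (4) and 3 to 6 (5) with cycloheximide added, 0 to 5 (3), 1 to 3 (3) and 0 to 5 (3) with harringtonine added, 0 to 2 (0) with cycloheximide alone and 0 to 2 (1) with harringtonine alone in activated cells.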
